A study of Homo sapiens with 24 samples.

Results

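The comparison described here is that of untreated SCC-61 cells at 24 h with untreated SCC-61 cells at 2 h, 3 arrays at each time. SCC-61 is an established human squamous carcinoma line of the head and neck, grown in medium with serum and hydrocortisone, a glucocorticoid. Starvation in medium low in serum came before the times were counted, untreated cells then received no AMP-18, and so the 2 groups share cell line, growth medium and starvation and differ in time alone as far as the labels say. The study asked how AMP-18, a protein of the gastric mucosa encoded by GKN1, acts on carcinoma cells and on HaCaT, a nontransformed line of human skin keratinocytes. It hybridised total RNA of both lines, with AMP-18 at 2 µg/ml or without it, at 24 h and 2 h, 3 arrays in each of 8 groups, to Illumina beadchips. Values are log2 intensities, on which a difference of 1 is 2-fold, and a detection p-value stands beside each value. Of 47323 probes on the array, 19046 had a detection p-value under 0.05 on all 3 arrays of either untreated SCC-61 group and were kept. Of these, 16664 met the rule at both times, 1101 at 24 h alone and 1281 at 2 h alone. They held 11209 named genes, each represented by its brightest probe, and 4030 further probes carried no single gene symbol. At the edge of the rule, 282 probes with their highest detection p-value between 0.04 and 0.05 in the better group were inside it, at a median log2 level of 4.41, and 425 probes between 0.05 and 0.06 were outside it, at a median of 4.37.

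The endoplasmic reticulum senses the sterol content of its membrane and releases SREBP transcription factors when sterol is scarce, which switch on the enzymes of cholesterol and fatty acid synthesis. Growth factors in serum sustain ribosome assembly and entry into S phase, and squamous cells that stop dividing can turn towards differentiation. Keratinocytes also make interferon-stimulated, complement and antimicrobial proteins of their own, which are known in oral and skin epithelium as a first defence.

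Most of the measured transcriptome differed between 24 h and 2 h. In a limma fit with Benjamini-Hochberg adjustment over 21580 probes, an adjusted p under 0.05 was reached by 11031 of the 19046 probes (57.9%), of which 5178 (27.2%) were higher at 24 h and 5853 (30.7%) lower. Among named genes 7027 of 11209 passed (62.7%), 3510 higher (31.3%) and 3517 lower (31.4%). All arrays share 1 distribution of values, so a shift of most genes in 1 direction could be hidden. Most differences were small, with a median size of 0.51 on the log2 scale among the probes that passed. Changes over 2-fold were found for 790 genes (7.05%), and here the directions were unequal, with 529 genes (4.72%) higher and 261 (2.33%) lower. Over 4-fold, 51 genes were higher and 5 lower. The 3 values at 24 h and the 3 at 2 h did not overlap for 7847 genes (70.0%). A count for any group of genes below has to be read against these shares. In RNA from a whole culture, a change per cell and a change in the share of cells that express a gene cannot be told apart. Whether the samples of a group were separate cultures is not stated in the labels, so the p-values measure only the spread between these samples, which may be technical, and whether the 24 h and 2 h arrays were handled in separate batches cannot be told from the labels.

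**Figure D1:**
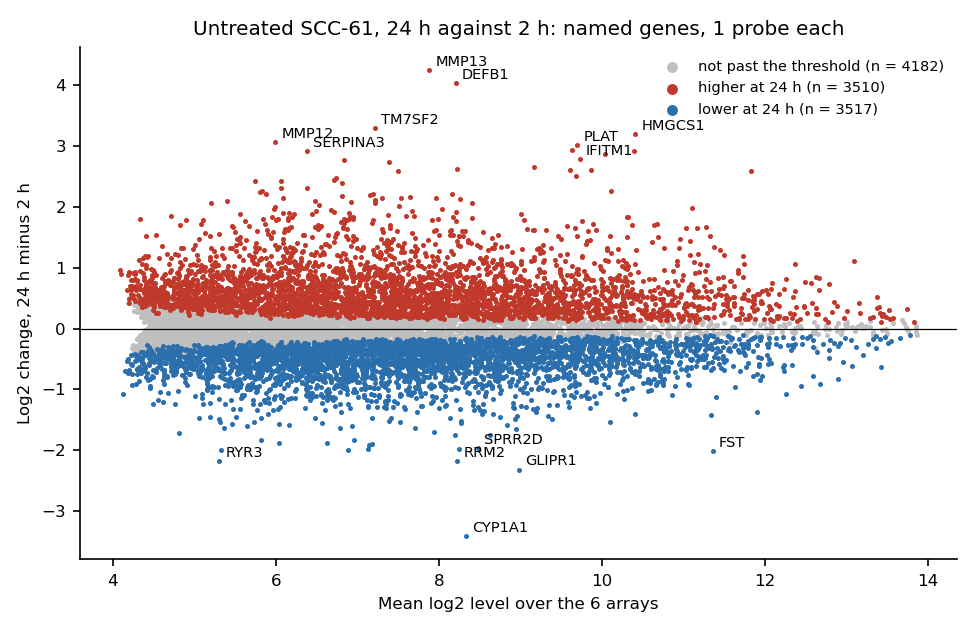
Log2 change between 24 h and 2 h (vertical axis) against the mean log2 level over the 6 arrays (horizontal axis) for the 11209 named genes of untreated SCC-61, 1 point per gene. The 3510 genes in red were higher at 24 h, the 3517 in blue lower, and the upper end of the plot, led by MMP13 and DEFB1, reaches further from 0 than the lower end, where CYP1A1 stands alone.

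The arrays were tight within each time. Over the 21580 probes of the fit, Pearson correlations were 0.993 to 0.996 between arrays of the same time and 0.965 to 0.969 between 24 h and 2 h arrays. On the same probes the first principal component of the 6 arrays, with 81.3% of the variance, separated the times. The second, with 6.34%, set replicate 2 of the 24 h group (a score of -20.4) apart from the other 24 h arrays (13.5 and 8.13), and without that array 10235 probes passed the test described above. The cells carried the label's markers: of 16 genes fixed as markers of squamous epithelium, 12 had a named probe, and all 12 were detected on all 6 arrays. KRT5, a basal keratin, had log2 levels of 10.47, 10.70 and 10.64 at 24 h and 10.05, 10.08 and 10.03 at 2 h. Markers of other cell types were detected in part. Of 7 leukocyte markers with a probe, CD14 and CD68 were detected on all 6 arrays, and PTPRC and CD3E on none. Of 9 fibroblast markers COL1A1, COL3A1, DCN, LUM and FAP were detected on all 6 arrays, and PDGFRA, PDGFRB and THY1 on none. Of 6 endothelial markers CDH5 was detected on all 6 arrays and PECAM1, VWF, TEK and CLDN5 on none, and of 4 melanocyte markers PMEL was detected on all 6 and MLANA, TYR and TYRP1 on none. GKN1, the gene of AMP-18, was detected on all 6 arrays, with log2 levels of 6.78, 6.73 and 6.69 at 24 h and 7.11, 7.31 and 7.09 at 2 h (difference -0.44 ± 0.11, adjusted p = 0.00141). Among genes often used for scaling, ACTB differed by -0.64 ± 0.042 (adjusted p = 1.51e-13), TBP by -0.30 ± 0.083 (0.00261) and GAPDH by -0.16 ± 0.048 (0.00623), the last no longer past the threshold after cyclic loess normalisation.

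Cholesterol synthesis had the highest median of the 54 gene lists chosen for this comparison. Of 19 measured genes of sterol synthesis and uptake, 17 were higher at 24 h, 15 of them over 2-fold, none was lower, and the median difference was 1.83 on the log2 scale, against -0.010 for all 11209 genes. HMGCS1, which makes the substrate of the mevalonate pathway, had log2 levels of 11.95, 12.04 and 12.03 at 24 h and 8.83, 8.79 and 8.80 at 2 h, a 9.18-fold increase (3.20 ± 0.059, adjusted p = 1.64e-26). MSMO1, a later enzyme that removes methyl groups from the sterol ring, had log2 levels of 11.91, 11.81 and 11.83 at 24 h and 8.89, 8.93 and 9.001 at 2 h (2.91 ± 0.056, adjusted p = 4.11e-26). For both genes the lowest 24 h array lay far above the highest 2 h array. Arrays that did not overlap were a condition for naming the 15 largest increases, and 70.0% of all named genes met it. TM7SF2, a sterol reductase, rose 9.79-fold, DHCR7, the last reductase before cholesterol, 7.66-fold, and MVD, which decarboxylates a mevalonate product, 6.84-fold. The 2 genes that did not pass were PMVK (0.045), a kinase of the pathway, and SREBF2 (0.073), which encodes its transcription factor. Other probes of a gene did not always show the same size of change, and of 3 probes for MSMO1 the smallest difference was 0.19.

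The promoters of MSMO1 and HMGCS1 are shown because the list with the highest median shares a short sequence there, the CCAAT box, which binds the factor NF-Y. In RefSeq promoters (250 bases before to 50 after the transcription start, build GRCh38.p14), CCAAT or its reverse complement ATTGG was present in 14 of 17 sterol genes with a promoter entry (82.4%), in 37.2% of the 9072 member genes with one and in 35.7% of all 27305 promoters. The core of the sterol regulatory element, TCACNCCAC on either strand, was found in 1 of the 17 (5.88%), against 1.15% of all promoters. That 1 gene was SREBF2, whose own level did not pass the test. The sterol genes that rose and had a promoter entry did not hold this exact core in the stretch searched. Some genes that rose had no promoter entry, and whether SREBP factors act on these genes was not tested. Capitals mark CCAAT or ATTGG in MSMO1 (chr4:165327419-165327718, plus strand) and HMGCS1 (chr5:43313363-43313662, minus strand).
MSMO1: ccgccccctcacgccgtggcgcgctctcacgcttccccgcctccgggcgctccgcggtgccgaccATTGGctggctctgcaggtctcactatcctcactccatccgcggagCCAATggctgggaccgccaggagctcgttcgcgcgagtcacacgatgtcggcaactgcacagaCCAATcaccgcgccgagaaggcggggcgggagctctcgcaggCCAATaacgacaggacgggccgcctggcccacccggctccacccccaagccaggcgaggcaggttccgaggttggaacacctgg
HMGCS1: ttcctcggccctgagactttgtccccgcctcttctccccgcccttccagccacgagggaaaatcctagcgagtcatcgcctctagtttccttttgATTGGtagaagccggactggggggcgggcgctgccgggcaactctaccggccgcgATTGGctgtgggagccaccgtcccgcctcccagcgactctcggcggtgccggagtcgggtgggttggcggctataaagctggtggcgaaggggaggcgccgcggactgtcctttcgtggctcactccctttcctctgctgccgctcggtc

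Fatty acid synthesis rose alongside. Of its 13 measured genes, 12 were higher at 24 h and 1, ELOVL6, was lower (-0.19), with a median difference of 1.03. SCD, the desaturase that makes monounsaturated fatty acids, had log2 levels of 13.09, 13.12 and 13.17 at 24 h and 10.50, 10.52 and 10.60 at 2 h (2.59 ± 0.042, adjusted p = 1.23e-27). ACSS2, which makes acetyl-CoA from acetate in the cytosol, had log2 levels of 11.34, 11.56 and 11.52 at 24 h and 8.56, 8.62 and 8.66 at 2 h, a 7.27-fold rise. SREBF1, the transcription factor of fatty acid synthesis, rose by 1.80 and FASN, the fatty acid synthase, by 1.66. The burning of fatty acids did not move as a group, since 5 of 16 oxidation genes rose and 7 fell (median -0.099), and CPT1A, which admits fatty acids to mitochondria, was the lowest at -0.996.

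**Figure D2:**
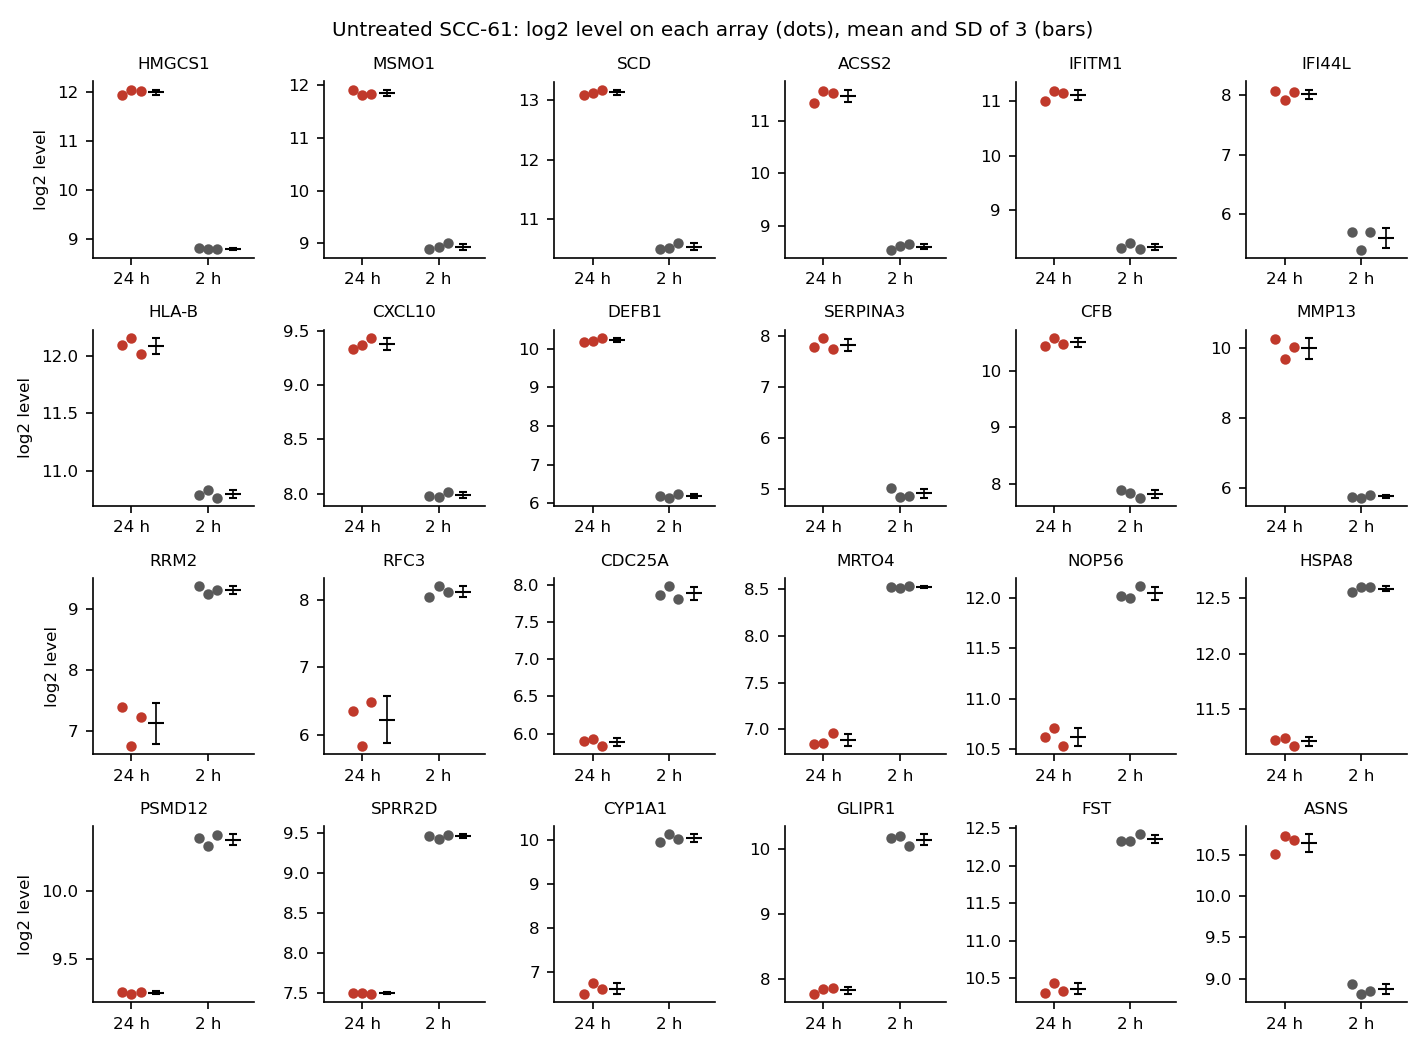
Log2 level on each array for 24 genes of untreated SCC-61, with the 3 arrays at 24 h (red) left of the 3 at 2 h (grey) and the mean and SD of each group as a black bar; each panel has its own vertical range, which does not start at 0. The groups did not overlap in any panel, which was a condition for choosing the largest changes and held for 70.0% of all named genes. The 24 h arrays were spread widest for RRM2 and RFC3.

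Interferon-stimulated genes, which cells switch on through the factor ISGF3 when they sense interferon or viral nucleic acid, were higher at 24 h almost throughout. Of 47 measured genes 43 rose, 22 of them over 2-fold, none fell, and the median difference was 0.94. IFITM1, a membrane protein that blocks virus entry, had log2 levels of 11.01, 11.20 and 11.15 at 24 h and 8.31, 8.40 and 8.30 at 2 h, a 6.88-fold increase (2.78 ± 0.064, adjusted p = 2e-24). IFI44L had log2 levels of 8.06, 7.91 and 8.04 at 24 h and 5.70, 5.41 and 5.70 at 2 h (2.40 ± 0.14, adjusted p = 4.51e-15), although its other probe differed by only 0.41. MX2, a GTPase that restricts viruses, rose 3.5-fold, OASL, a relative of the oligoadenylate synthetases, 3.24-fold, and TRIM22 3.1-fold. On single arrays the median of the list, relative to the mean of the 6 arrays, was 0.47, 0.52 and 0.49 at 24 h and -0.48, -0.48 and -0.48 at 2 h. The 4 that did not pass were GBP1 (-0.16), HERC6 (0.079), EIF2AK2 (0.18) and IFIT5 (0.25). Leukocytes express many of these genes, and of 7 leukocyte markers with a probe, CD14 and CD68 were detected on all 6 arrays and rose by 1.05 and 0.57, while PTPRC, the common leukocyte antigen, and CD3E, of T cells, were detected on no array. Summed over the 7 markers the linear level was 1030 to 1120 at 24 h and 730.0 to 739 at 2 h. Most of that sum was CD68, at mean log2 levels of 9.80 at 24 h and 9.23 at 2 h. LYZ (4.03 at 24 h and 4.43 at 2 h) and CD79A (4.41 and 4.47) were near the detection limit and not higher at 24 h. ITGAM, also near that limit, was higher at 24 h (4.56 against 4.33 at 2 h) but did not pass the test. It was detected on 3 of 3 arrays at 24 h and on 2 of 3 at 2 h. Whether leukocytes were present in the cultures was not tested.

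The promoters of IFITM1 and IFI44L are shown because the core of the interferon-stimulated response element, TTTCNNTTT or its reverse complement AAANNGAAA, recurs in this list. It was found in 30 of 38 list genes with a promoter entry (78.9%), against 7.61% of the 9072 member genes and 10.6% of all 27305 promoters. Capitals mark it in IFITM1 (chr11:313790-314089, plus strand) and IFI44L (chr1:78620198-78620497, plus strand).
IFITM1: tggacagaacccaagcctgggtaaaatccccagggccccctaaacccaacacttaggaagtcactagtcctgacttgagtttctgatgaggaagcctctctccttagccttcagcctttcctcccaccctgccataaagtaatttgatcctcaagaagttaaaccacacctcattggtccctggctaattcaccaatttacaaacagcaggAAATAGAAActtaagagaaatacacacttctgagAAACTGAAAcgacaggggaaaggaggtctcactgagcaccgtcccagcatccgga
IFI44L: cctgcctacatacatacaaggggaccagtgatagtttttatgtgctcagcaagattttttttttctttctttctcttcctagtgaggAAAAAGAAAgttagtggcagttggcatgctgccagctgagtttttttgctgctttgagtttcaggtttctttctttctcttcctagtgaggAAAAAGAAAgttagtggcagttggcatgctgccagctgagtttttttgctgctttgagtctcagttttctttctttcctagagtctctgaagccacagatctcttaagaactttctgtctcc

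Antigen presentation by MHC class I, the pathway that shows peptides of the cell to T lymphocytes, also rose. Of 18 measured genes 16 were higher and 1, TAP2, lower (-0.18), with a median of 0.83. HLA-B, a class I heavy chain, had log2 levels of 12.09, 12.15 and 12.01 at 24 h and 10.80, 10.83 and 10.77 at 2 h (1.29 ± 0.07, adjusted p = 1.91e-15). HLA-F rose 2.7-fold, TAPBP, which loads peptides, 2.46-fold and PSMB9, an immunoproteasome subunit, 2.19-fold. Probes for HLA genes can hybridise to related loci, so single HLA values are uncertain as to the locus. The ordinary proteasome went the other way, with 27 of 29 subunits lower, none higher and a median of -0.56, and PSMD12, a subunit of its regulatory lid, had log2 levels of 9.26, 9.24 and 9.25 at 24 h and 10.39, 10.34 and 10.42 at 2 h (-1.13 ± 0.065).

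Acute-phase, complement and antimicrobial genes had the second highest median of the 54 lists, with 16 of 18 higher, 11 of them over 2-fold, none lower and a median of 1.20. DEFB1, a beta-defensin that epithelia secrete against bacteria, had log2 levels of 10.17, 10.21 and 10.28 at 24 h and 6.19, 6.14 and 6.24 at 2 h, a 16.3-fold rise (4.03 ± 0.072, adjusted p = 9.42e-27). SERPINA3, an acute-phase protease inhibitor, had log2 levels of 7.79, 7.96 and 7.74 at 24 h and 5.02, 4.86 and 4.88 at 2 h (2.91 ± 0.15, adjusted p = 5.84e-16). CFB, the complement factor B of the alternative pathway, rose 6.31-fold, and CFI and C1R, 2 other complement proteases, 3.58-fold and 3.45-fold. Of 9 measured chemokines 7 rose and none fell: CXCL10, which recruits T cells, had log2 levels of 9.33, 9.37 and 9.43 at 24 h and 7.98, 7.97 and 8.02 at 2 h (1.39 ± 0.13), and CXCL1, which recruits neutrophils, rose 2.52-fold. The wider list of NF-kB targets and cytokines was split, with 13 of 32 higher, 12 lower and a median of -0.015. TNFSF10, the death ligand TRAIL, rose 5.68-fold and SOD2, the mitochondrial superoxide dismutase, 2.88-fold, whereas IL24 fell by 1.24 and was detected on 1 of 3 arrays at 24 h.

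Genes of matrix breakdown held the largest increase among the 11209 named genes. MMP13, a collagenase that squamous carcinomas are known to make, had log2 levels of 10.28, 9.69 and 10.05 at 24 h and 5.75, 5.73 and 5.81 at 2 h, an 18.9-fold rise (4.24 ± 0.11, adjusted p = 1.56e-23). MMP12, the elastase of the family, had log2 levels of 7.48, 7.52 and 7.57 at 24 h and 4.24, 4.60 and 4.54 at 2 h and was detected on 2 of 3 arrays at 2 h (3.06 ± 0.16, adjusted p = 6.94e-16). MMP7 rose 6.11-fold and MMP10 2.15-fold. As a list, however, 12 of 22 metalloproteinases and inhibitors rose and 7 fell, with a median of 0.30. PLAT, the tissue plasminogen activator, had log2 levels of 11.19, 11.20 and 11.23 at 24 h and 8.21, 8.26 and 8.11 at 2 h, 8.07-fold higher (3.01 ± 0.08, adjusted p = 7.63e-23), and TFPI, the inhibitor of tissue factor, rose 3.96-fold. PLAUR, the receptor of urokinase, fell by 0.99 and F3, tissue factor, by 0.62.

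Matrix genes rose more often than they fell, with 26 of 36 collagens and matrix proteins higher, 3 lower and a median of 0.46. LOXL4, a collagen cross-linking oxidase, was detected on all 3 arrays at 24 h and on none at 2 h, and was at least 3.68-fold higher at 24 h when the 2 h level is set no lower than that array's dimmest detected probe (measured log2 difference 2.06). LUM, a small proteoglycan, had log2 levels of 7.05, 6.60 and 6.44 at 24 h and 5.35, 5.42 and 4.80 at 2 h (1.51 ± 0.16). THBS1, thrombospondin, fell by 1.07. Of 9 fibroblast markers 5 were detected on all 6 arrays, and LUM, COL3A1 and COL1A1 rose by 1.51, 0.93 and 0.46. The other detected markers did not pass, DCN (4.75 at 24 h and 4.56 at 2 h) and FAP, which was lower at 24 h (4.51 and 4.67). PDGFRA, PDGFRB and THY1 were undetected at both times. Summed over all 9 markers the linear level was 406 to 478 at 24 h and 248 to 285 at 2 h.

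**Figure D3:**
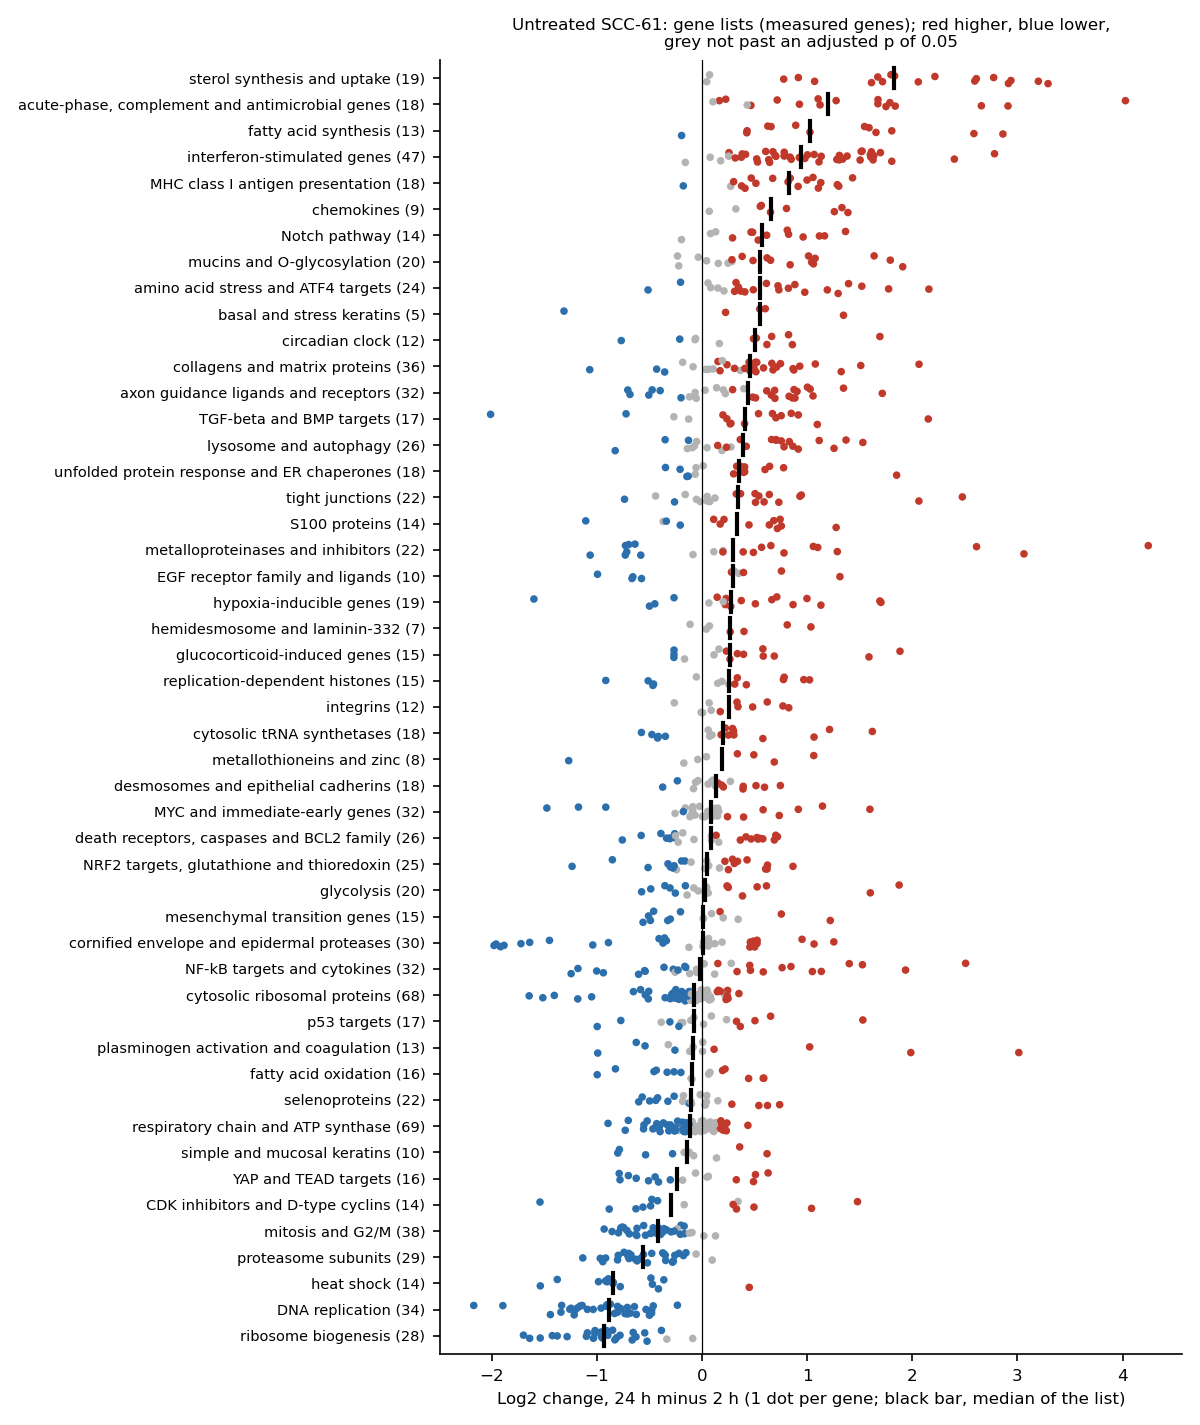
Log2 change between 24 h and 2 h (horizontal axis) for every measured gene of 49 lists in untreated SCC-61 (1 row per list, number of measured genes in brackets), with a black bar at the median. Sterol synthesis (median 1.83), acute-phase genes (1.20) and fatty acid synthesis (1.03) lie at the top, and heat shock (-0.85), DNA replication (-0.89) and ribosome biogenesis (-0.93) at the bottom.

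All 34 measured genes of DNA replication were lower at 24 h, 14 of them over 2-fold, with a median of -0.89. RRM2, the inducible subunit of the enzyme that makes deoxynucleotides, had log2 levels of 7.41, 6.76 and 7.24 at 24 h and 9.37, 9.24 and 9.31 at 2 h, 4.5-fold lower (-2.17 ± 0.12, adjusted p = 2.19e-15). RFC3, a subunit of the loader of the replication clamp, had log2 levels of 6.36, 5.84 and 6.48 at 24 h and 8.04, 8.21 and 8.11 at 2 h (-1.89 ± 0.12, adjusted p = 5.91e-14). For both genes replicate 2 was the lowest 24 h array, and its value lay further from the other 24 h arrays than those lay from each other. Without it the differences were -1.98 for RRM2 and -1.70 for RFC3. TYMS, which makes thymidylate, was 2.52-fold lower, GINS2 of the replicative helicase 2.71-fold and CCNE1, the cyclin of S phase entry, 2.53-fold. CDC25A, the phosphatase that frees cyclin-dependent kinases for S phase, had log2 levels of 5.90, 5.93 and 5.83 at 24 h and 7.86, 7.98 and 7.81 at 2 h (-1.99 ± 0.09, adjusted p = 2.38e-17).

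The E2F factors switch on replication genes at the start of S phase, and the promoters of RFC3 and GINS2 are shown because both hold the E2F site TTTCCCGC or its reverse complement GCGGGAAA. It was found in 10 of 30 replication genes with a promoter entry (33.3%), against 2.63% of member genes and 1.66% of all promoters. Capitals mark the site in RFC3 (chr13:33817899-33818198, plus strand) and GINS2 (chr16:85688905-85689204, minus strand).
RFC3: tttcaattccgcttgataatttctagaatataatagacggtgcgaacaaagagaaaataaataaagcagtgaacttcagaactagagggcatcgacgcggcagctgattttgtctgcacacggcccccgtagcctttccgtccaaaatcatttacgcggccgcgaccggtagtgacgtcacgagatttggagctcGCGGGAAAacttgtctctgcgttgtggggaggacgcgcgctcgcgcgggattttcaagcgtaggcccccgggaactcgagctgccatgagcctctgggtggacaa
GINS2: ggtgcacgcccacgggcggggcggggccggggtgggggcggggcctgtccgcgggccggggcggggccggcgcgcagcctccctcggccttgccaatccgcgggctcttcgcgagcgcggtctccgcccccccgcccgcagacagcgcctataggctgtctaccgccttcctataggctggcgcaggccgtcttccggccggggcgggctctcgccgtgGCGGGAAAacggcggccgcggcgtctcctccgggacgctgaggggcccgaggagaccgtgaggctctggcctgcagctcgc

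Genes of mitosis moved less. Of 38 measured, 33 were lower, none higher and none changed over 2-fold, with a median of -0.42. MAD2L1, of the spindle checkpoint, fell by 0.93, KIF23, a motor of cytokinesis, by 0.85, CDK1, the mitotic kinase, by 0.79 and FOXM1, a transcription factor of mitotic genes, by 0.77. In their promoters CCAAT was present for 24 of 31 (77.4%). Of the regulators of the cell cycle, CDKN2B, an inhibitor of cyclin-dependent kinases, had log2 levels of 7.61, 7.63 and 7.64 at 24 h and 6.18, 6.29 and 5.98 at 2 h (1.48 ± 0.091). RBL2, the pocket protein of quiescent cells, rose 2.06-fold, while its relative RBL1 was 2.91-fold lower and CCND1, cyclin D1, fell by 0.63. Replication-dependent histone genes were mixed, with 7 of 15 higher, 4 lower and a median of 0.25.

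Ribosome biogenesis had the lowest median of the 54 lists, with 26 of 28 genes lower, 11 over 2-fold, none higher and a median of -0.93. RRS1, which helps to assemble the large ribosomal subunit, had log2 levels of 7.18, 7.07 and 7.03 at 24 h and 8.79, 8.78 and 8.80 at 2 h (-1.70 ± 0.073, adjusted p = 8.99e-18). MRTO4, an assembly factor of the large subunit, had log2 levels of 6.84, 6.86 and 6.96 at 24 h and 8.53, 8.52 and 8.53 at 2 h (-1.64 ± 0.067), and NOP56, of the box C/D particles that modify ribosomal RNA, had log2 levels of 10.63, 10.71 and 10.53 at 24 h and 12.02, 12.003 and 12.12 at 2 h (-1.42 ± 0.082). The 3 arrays at 24 h lay below the 3 at 2 h for each of these genes, and arrays did not overlap, in either direction, for 70.0% of all named genes. The ribosomal proteins themselves moved little, with 8 of 68 higher, 29 lower and a median of -0.074. The 5 that fell over 2-fold were RPS7 (-1.64), RPL34 (-1.51), RPL29 (-1.40), RPL36A (-1.18) and RPS23 (-1.05), and since such genes have many near-identical pseudogenes, single probes are uncertain. Respiratory chain and ATP synthase genes showed no change over 2-fold, with 9 of 69 higher and 30 lower (median -0.12).

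MRTO4 is shown because the E-box CACGTG, the site of MYC and related factors, was found in 8 of 22 ribosome biogenesis promoters (36.4%), against 10.3% of member genes and 7.43% of all promoters. Capitals mark it in MRTO4 (chr1:19251555-19251854, plus strand). The level of MYC itself did not pass the test (-0.023).
MRTO4: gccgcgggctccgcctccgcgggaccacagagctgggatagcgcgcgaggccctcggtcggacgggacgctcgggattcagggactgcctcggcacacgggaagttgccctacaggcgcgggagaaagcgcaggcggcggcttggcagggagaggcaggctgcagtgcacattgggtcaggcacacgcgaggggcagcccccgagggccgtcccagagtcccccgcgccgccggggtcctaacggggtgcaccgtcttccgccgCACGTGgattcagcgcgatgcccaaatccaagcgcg

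Heat shock proteins fell, with 13 of 14 lower and 1, HSPB1, higher (0.45), and a median of -0.85. HSPA8, the constitutive chaperone of the cytosol, had log2 levels of 11.22, 11.24 and 11.17 at 24 h and 12.56, 12.60 and 12.60 at 2 h (-1.38 ± 0.044), and HSPH1, its exchange factor, was 2.9-fold lower. Chaperones of the endoplasmic reticulum went the other way in smaller steps, with 11 of 18 higher and 4 lower (median 0.35), and XBP1, a transcription factor of the unfolded protein response, rose by 0.78. Targets of ATF4, the factor that answers amino acid shortage, rose in 18 of 24 cases and fell in 2 (median 0.55). ASNS, asparagine synthetase, had log2 levels of 10.52, 10.73 and 10.68 at 24 h and 8.94, 8.82 and 8.85 at 2 h (1.77 ± 0.061, adjusted p = 5.23e-20), and CBS, of the path from methionine to cysteine, rose 4.46-fold and PHGDH, of serine synthesis, 2.87-fold. Of 18 cytosolic tRNA synthetases, which charge tRNA with amino acids, 10 were higher and 5 lower (median 0.20), led by WARS1 at 1.62.

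The strongest single decrease was that of CYP1A1, the cytochrome P450 that the aryl hydrocarbon receptor induces. It had log2 levels of 6.51, 6.77 and 6.62 at 24 h and 9.95, 10.13 and 10.03 at 2 h, 10.6-fold lower at 24 h (-3.40 ± 0.11, adjusted p = 1.25e-20). GLIPR1, a secreted protein of the CAP family, had log2 levels of 7.76, 7.84 and 7.87 at 24 h and 10.17, 10.20 and 10.04 at 2 h (-2.31 ± 0.15), and RYR3, a calcium release channel, had log2 levels of 4.17, 4.13 and 4.36 at 24 h and 6.28, 6.39 and 6.51 at 2 h and was detected on 1 of 3 arrays at 24 h. FST, the antagonist of activin, had log2 levels of 10.30, 10.43 and 10.32 at 24 h and 12.34, 12.33 and 12.42 at 2 h (-2.01 ± 0.047, adjusted p = 2.66e-24), and its other probe differed by more (-3.12). IL1RL1, the receptor of interleukin-33, had log2 levels of 4.33, 4.24 and 4.42 at 24 h and 6.39, 6.29 and 6.30 at 2 h and was detected on 1 of 3 arrays at 24 h. GAL, the peptide galanin, was 3.96-fold lower, SHISA2 3.68-fold and FAM167A 3.57-fold. FST stood against its list, since 13 of 17 TGF-beta and BMP targets were higher and 2 lower (median 0.41), among them GDF15, a stress-induced cytokine of the family, which rose 4.44-fold, and ID1, a target of BMP signals, which rose 2.14-fold.

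The genes of squamous differentiation did not move as a unit. Of 30 measured genes of the cornified envelope and epidermal proteases 9 rose and 13 fell (median 0.012). Small proline-rich proteins, which are cross-linked into the envelope, were 4 of the 15 largest decreases: SPRR2A, SPRR2D, SPRR2F and SPRR3. SPRR2D had log2 levels of 7.51, 7.51 and 7.48 at 24 h and 9.47, 9.43 and 9.48 at 2 h (-1.96 ± 0.12, adjusted p = 9.19e-15) and SPRR3 had log2 levels of 5.81, 5.53 and 5.73 at 24 h and 7.51, 7.63 and 7.58 at 2 h (-1.88 ± 0.11). SPRR2 genes are near-identical copies, so their probes may not tell them apart. GRHL3, a transcription factor of the epidermal barrier, was detected on none of the arrays at 24 h and on all 3 at 2 h, and was at least 2.48-fold lower at 24 h (measured difference -1.72). Basal keratins rose, KRT15 2.54-fold, KRT14 by 0.60 and KRT5 by 0.55. The stress keratins were split, since KRT6C fell by 1.31 while KRT16 rose, by 0.64 or 0.22 depending on the probe. S100A7, psoriasin, rose 2.42-fold while S100A2 was 2.15-fold lower, and 10 of 14 S100 genes were higher and 3 lower.

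Genes of the mucosal surface and of tight junctions rose more often than they fell. Of 20 mucins and O-glycosylation enzymes 13 rose and none fell (median 0.55), and MUC4, a membrane mucin, had log2 levels of 7.63, 7.72 and 7.66 at 24 h and 5.82, 5.81 and 5.65 at 2 h (1.91 ± 0.16). Of 22 tight junction genes 12 rose and 2 fell (median 0.35). ILDR1, of tricellular junctions, had log2 levels of 7.85, 8.08 and 7.997 at 24 h and 5.45, 5.47 and 5.58 at 2 h (2.48 ± 0.10), and CLDN8, a claudin, rose 4.18-fold. Of 18 genes of desmosomes and epithelial cadherins, which anchor cells to each other, 8 rose, 2 fell and 8 did not pass (median 0.14). The Notch pathway, which instructs keratinocyte fate, had 11 of 14 genes higher, none lower and a median of 0.58: JAG1, a ligand, rose 2.58-fold, NOTCH3, a receptor, 2.24-fold and HEY1, a target, by 0.96. The EGF receptor family and its ligands were split, with 4 of 10 genes higher and 4 lower (median 0.29, but -0.15 with a stricter detection filter). The 3 measured receptors rose, ERBB3 2.48-fold (although the smallest of its 3 probes differed by -0.22), ERBB2 by 0.76 and EGFR by 0.28 (its 3 probes from -0.35 to 0.97). Of 6 measured ligands EREG fell by 0.99, NRG1 by 0.67, TGFA by 0.66 and HBEGF by 0.57, while EGF (0.35) and BTC (0.31) did not pass, and ERRFI1, an inhibitor of the receptors, rose by 0.40. VIM, of the mesenchymal filament, fell by 0.49, and 3 of 15 mesenchymal transition genes were higher and 7 lower (median 0.012).

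Several stress and rhythm genes were higher at 24 h. TSC22D3 and KLF9, induced by glucocorticoids, rose 3.69-fold and 3.01-fold, and 9 of 15 genes of that list were higher and 3 lower. BHLHE40, a repressor in the circadian clock that hypoxia also induces, had log2 levels of 10.36, 10.36 and 10.53 at 24 h and 8.64, 8.74 and 8.79 at 2 h (1.69 ± 0.06), and DBP, a clock output, rose by 0.86. DDIT4, an inhibitor of mTORC1, rose 3.25-fold and SLC2A3, a glucose carrier, 3.67-fold, while CA12, a carbonic anhydrase, was 3.03-fold lower. Lysosome and autophagy genes rose in 16 of 26 cases and fell in 3 (median 0.39), led by TP53INP1 (1.53) and NEU1, a sialidase (1.37). EGR1, the early growth response factor, rose 3.02-fold and FOSL1, of the AP-1 family, was 2.78-fold lower, in a list of 32 immediate-early genes of which 21 did not pass.

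The same interval in untreated HaCaT gave a partly different picture, from separate arrays. Of the 7027 genes called in SCC-61, 4719 (67.2%) were called in the same direction in HaCaT and 662 (9.42%) in the opposite one, and the 4719 made up 62.8% of the 7519 genes called in HaCaT. Of the 790 genes over 2-fold in SCC-61, 669 were called in the same direction in HaCaT. The difference between the changes of the lines was tested for each probe as an interaction and passed for 8173 of 19046 probes (42.9%), 3969 (20.8%) more positive in SCC-61 and 4204 (22.1%) more negative. Among genes 5365 (47.9%) passed. Cholesterol synthesis was high in both lines, with a median change of 1.83 in SCC-61 and 1.96 in HaCaT, and CYP1A1 had nearly the same change in both (-3.40 in SCC-61 and -3.40 in HaCaT, a difference of -0.002 ± 0.16, adjusted p = 0.995).

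The lines parted over several stress lists. Heat shock was not one of them, with medians of -0.85 in SCC-61 and -0.93 in HaCaT, and with 6 of 14 genes more positive and 5 more negative in SCC-61. In 16 of 18 genes of the unfolded protein response and 17 of 18 tRNA synthetases the change was more positive in SCC-61, and in none more negative. The medians of the unfolded protein list were 0.35 in SCC-61 and -0.65 in HaCaT, and those of the tRNA synthetases 0.20 in SCC-61 and -0.82 in HaCaT. ATF4 targets had a median of 0.55 in SCC-61 and -0.38 in HaCaT, with 17 of 24 more positive and 2 more negative in SCC-61. Acute-phase genes had medians of 1.20 in SCC-61 and 0.16 in HaCaT, with 12 of 18 more positive and 2 more negative. MHC class I genes had 0.83 in SCC-61 and 0.23 in HaCaT, with 11 of 18 more positive and none more negative. Mitotic genes fell in SCC-61 (median -0.42) but not as a list in HaCaT (0.0076), and 34 of 38 were more negative in SCC-61. Ribosome biogenesis fell less in SCC-61 (-0.93) than in HaCaT (-1.60), with 25 of 28 more positive in SCC-61. These counts stand beside a background of 23.6% of all genes more positive and 24.3% more negative.

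**Figure D4:**
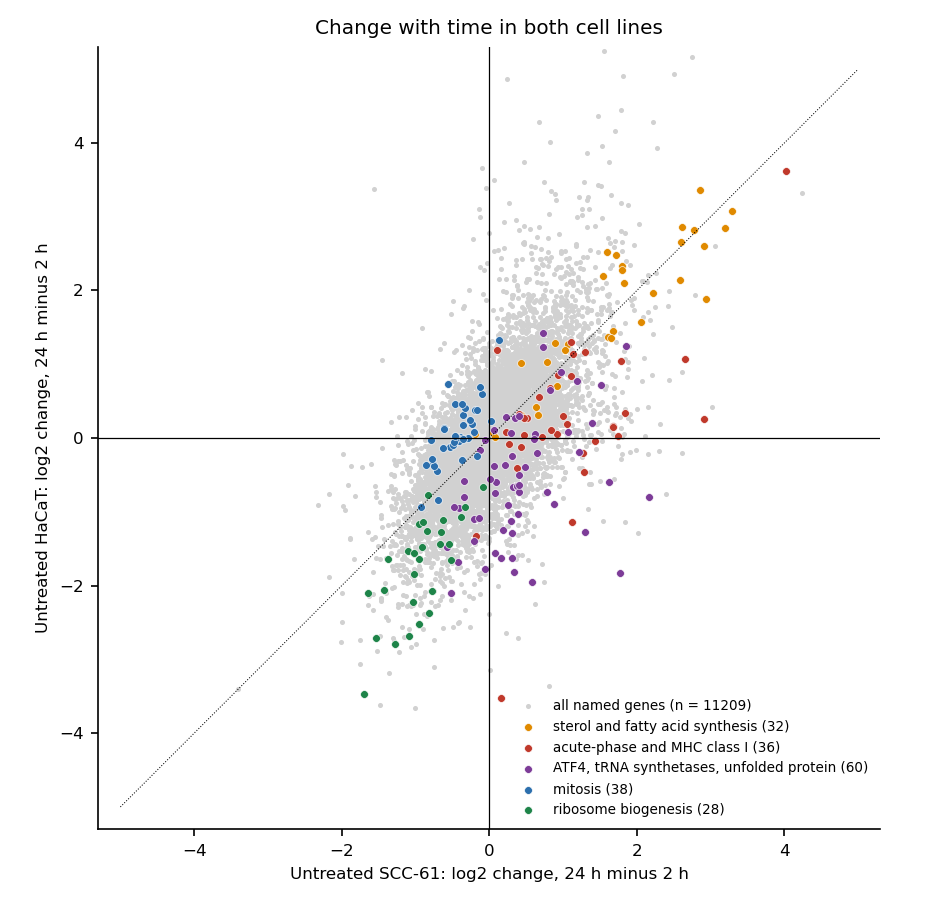
Log2 change between 24 h and 2 h in untreated SCC-61 (horizontal axis) and in untreated HaCaT (vertical axis) for 11209 genes, with members of 5 groups in colour and equal change on the dotted line. Most sterol and fatty acid synthesis genes lie at the upper right, with medians of 1.83 and 1.03 in SCC-61 and 1.96 and 1.29 in HaCaT. For fatty acid synthesis the change was more positive in SCC-61 for 3 of 13 genes and more negative for 8. Mitotic genes (blue) lie mostly to the left of the dotted line and stress genes (purple) mostly below it.

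The largest single differences between the lines ran in both directions. CXCL8, a neutrophil chemokine, changed by 0.80 in SCC-61 and -3.36 in HaCaT, a difference of 4.17 ± 0.12 (adjusted p = 1.18e-21). ASNS changed by 1.77 in SCC-61 and -1.83 in HaCaT (3.61 ± 0.087). SERPINB3, a squamous serpin, changed by 2.01 in SCC-61 and -1.29 in HaCaT, and IFI44L by 2.40 in SCC-61 and -0.76 in HaCaT. These 4 genes rose in SCC-61 and fell in HaCaT. MAL, a raft protein of epithelia, did the reverse, with -1.57 in SCC-61 and 3.38 in HaCaT (-4.95 ± 0.15, adjusted p = 3.99e-21). ALDOC, an aldolase, changed by 0.24 in SCC-61 and 4.87 in HaCaT, and GPNMB, a lysosomal glycoprotein, by 0.82 in SCC-61 and 4.01 in HaCaT. The fall of IFI44L in HaCaT stood against its list. Of 47 interferon-stimulated genes 32 rose in HaCaT and 3 fell, with a median of 0.70, against 0.94 in SCC-61. The change was more positive in SCC-61 for 23 of them and more negative for 9.

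With AMP-18 present, the same interval in SCC-61 looked much alike for most genes, again from separate arrays. Sterol synthesis had a median change of 1.83 without and 1.91 with AMP-18. Some list medians were nearer 0 with AMP-18 and others further from it. The median of acute-phase genes went from 1.20 to 0.80, with 2 of 18 genes differing. That of the circadian clock went from 0.50 to 0.69 (0 of 12) and that of interferon-stimulated genes from 0.94 to 1.0 (1 of 47). The median fell from 0.35 to 0.021 for the unfolded protein response, with 0 of 18 genes differing. It fell from 0.35 to 0.12 for tight junctions (3 of 22) and from 0.27 to 0.015 for hemidesmosomes and laminin-332 (4 of 7). Of the 7027 genes called in untreated SCC-61, 5658 (80.5%) were called in the same direction in AMP-18-treated SCC-61 and 12 (0.171%) in the opposite one, and all 790 genes over 2-fold were called in the same direction. The difference between the changes passed for 379 of 19046 probes (1.99%), 315 (1.65%) more positive and 64 (0.336%) more negative without AMP-18. The count depended on single arrays, from 172 without replicate 2 of untreated SCC-61 at 24 h to 444 without replicate 1 of AMP-18-treated SCC-61 at 2 h. SCGB1A1, a secretoglobin of the airway, had log2 levels of 8.76, 8.77 and 8.81 at 24 h and 7.24, 7.34 and 7.12 at 2 h without AMP-18 and changed by 1.55 ± 0.067 there and 0.75 with it, a difference of 0.80 ± 0.095 (adjusted p = 7e-05). HLA-DRB4, an MHC class II chain, changed by 2.62 without and 1.87 with AMP-18 (0.75 ± 0.15), although its other probe differed by -0.16 over time without AMP-18. EIF3A, of the initiation factor eIF3, fell by 0.76 without AMP-18, against -0.23 with it (-0.54 ± 0.10, adjusted p = 0.00364).

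**Figure D5:**
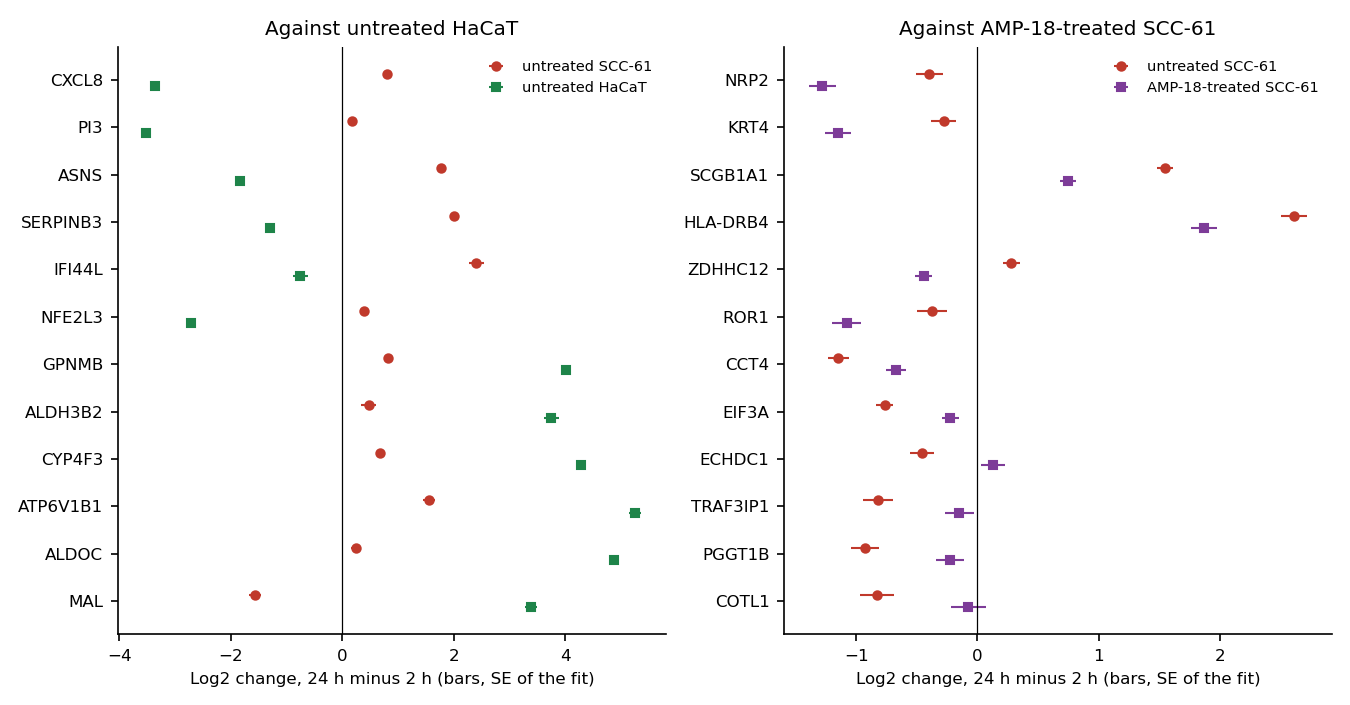
Log2 change between 24 h and 2 h with its SE for the 6 genes at each end of the difference between untreated SCC-61 and untreated HaCaT (left) and between untreated and AMP-18-treated SCC-61 (right). Between the lines the difference runs from -4.95 for MAL to 4.17 for CXCL8 on the log2 scale, and between the SCC-61 groups from -0.75 for COTL1 to 0.88 for NRP2.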

How the data were processed

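Total RNA of SCC-61 and HaCaT was hybridised as biotin-labelled cRNA to Illumina beadchips, 24 arrays in 8 groups of 3, and the groups follow the sample titles. The authors deposited log2 intensity values per probe and a separate table of detection p-values, made with GenomeStudio 2011.1 per the labels; how the values were normalised is not given in the sources used here, but all arrays share 1 distribution of values. Detection p-values come in 770 steps. The number of arrays limits the precision, and intensities near background understate a change. Neither probe-level counts nor slide or scan records were used here.

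A probe entered the fit if its detection p-value was under 0.05 on all 3 arrays of any group (21580 of 47323 probes). Group means over 24 arrays were fitted with limma 3.58.1 in R 4.3.3 (lmFit, eBayes with trend; 16 residual and 12.6 prior degrees of freedom), p-values were adjusted over all 21580 probes by Benjamini-Hochberg, and 0.05 was the threshold. Errors beside differences are standard errors of this fit. Differences between cell lines or between AMP-18-treated and untreated cells are interaction contrasts of the same fit. The fit was tested on simulated data. No column of the deposited tables was left unmapped.

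Gene names came from the platform annotation, updated through RefSeq: 30113 probes had 1 symbol, 8 several, and 30081 matched RefSeq. Each gene was represented by its brightest tested probe. Of 3018 genes with over 1 member probe, 708 had probes with changes of both signs and 5 had both over 1.5-fold. Promoters are RefSeq sequences of GRCh38.p14 and were searched on both strands.

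The members and the gene lists were chosen with earlier results of these data known. Named genes were the 15 largest increases and the 15 largest decreases among called genes whose arrays did not overlap, up to 5 of each list, 9 fixed genes, and the 6 genes at each end of either difference that were also called. Genes named as a list's exceptions, or to complete it, were chosen after their values were seen. Alternatives were the detection filter, the normalisation (median scaling, quantile or cyclic loess), a constant of 16 on linear values, fewer arrays and the replicate block. Others were eBayes without trend or robust, array weights, a t-test, and leaving out each array. The paper names a t-test among its general statistics, but for the arrays it ranked genes by Fisher's ratio.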

Additional observations from a re-analysis of the deposited data

Results flagged for a closer look

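Differences between groups in the same contrast were found in both tests. The change between 24 h and 2 h differed between untreated SCC-61 and untreated HaCaT for 8173 probes, and between untreated and AMP-18-treated SCC-61 for 379 probes.

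Against untreated HaCaT, the change was more positive in SCC-61 for CXCL8 (4.17 on the log2 scale), PI3, a protease inhibitor of epidermis (3.68), ASNS (3.61), SERPINB3 (3.30), IFI44L (3.16) and NFE2L3, a bZIP factor (3.10). PI3 itself rose in SCC-61 by 0.17 (adjusted p = 0.025) and changed by -3.52 in HaCaT. It was more negative for MAL (-4.95), ALDOC (-4.63), ATP6V1B1, a proton pump subunit (-3.69), CYP4F3 (-3.61), ALDH3B2 (-3.28) and GPNMB (-3.19). ALDH3B2 was not detected on any untreated SCC-61 array at 2 h.

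Against AMP-18-treated SCC-61, the differences were smaller. The change was more positive without AMP-18 for NRP2 (0.88), KRT4 (0.87), SCGB1A1 (0.80), HLA-DRB4 (0.75), ZDHHC12 (0.73) and ROR1 (0.70), and more negative for COTL1 (-0.75), PGGT1B (-0.70), TRAF3IP1 (-0.67), ECHDC1 (-0.58), EIF3A (-0.54) and CCT4 (-0.47). KRT4 was detected on 2 of 3 untreated SCC-61 arrays at 24 h.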

How the results depend on the processing

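Of the counts for 24 h against 2 h in untreated SCC-61, none moved by over 1.5 times under the alternatives run, although a constant of 16 on linear values lowered the 1185 probes over 2-fold to 790. Quantile normalisation (11034 probes) and median scaling (11031) could hardly change the 11031 probes that passed, because the arrays already shared 1 distribution of values. These 2 alternatives are therefore no check of the normalisation. Cyclic loess gave 5884 probes higher and 5073 lower, against 5178 and 5853. A t-test per probe called 10991 probes at an unadjusted p of 0.05 and 9218 after Benjamini-Hochberg. Leaving out 1 array gave 10165 to 10444 probes. For the 280 named genes no sign was reversed in 6422 comparisons with an alternative, and 54 of them, in 16 genes, fell short of the threshold, among them KRT4, PI3, ALDOC and CCL20. Of 755 list medians under an alternative 147 moved by more than the spread between replicates (38 of them with cyclic loess; the largest shift was 0.474, for fibroblast markers with the stricter detection filter), and of 1510 list counts 39 moved by over 1.5 times. The sign of the median changed in 7 lists: that of the EGF receptor family, and 6 whose median was 0.0898 or smaller in size, among them NF-kB targets, the cornified envelope and mesenchymal transition genes.

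The difference from AMP-18-treated SCC-61 was the unstable count. Against 379 probes (315 more positive and 64 more negative in untreated cells), testing all probes without a filter gave 232 in all and 20 more negative, and fitting the 12 SCC-61 arrays alone gave 32 more negative. Leaving out 1 array gave 172 to 444 in all, 153 to 341 more positive and 14 to 129 more negative. The total moved by over 1.5 times without replicate 2 of untreated SCC-61 at 24 h (172), replicates 1, 2 and 3 of AMP-18-treated SCC-61 at 24 h (190.0, 179 and 192), replicates 1, 2 and 3 of untreated SCC-61 at 2 h (226, 213 and 174) and replicate 2 of AMP-18-treated SCC-61 at 2 h (241). The cause was not tested. The difference from HaCaT stayed at 7539 to 7931 probes.

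Samples of the 24 h and 2 h groups share replicate numbers, but the labels do not say that a number marks a shared culture. Deviations of same-numbered arrays correlated at 0.0018 to 0.025, and not every array correlated best with its own number. A fit with the replicate number as a block gave 5354 probes higher and 6010 lower at 24 h, 8294 for the difference from HaCaT, and 288 for that from AMP-18-treated SCC-61, of which 267 were more positive and 21 more negative.

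Signal over background limits the dimmest probes: near a log2 level of 4.4, where 282 probes only just met the detection rule, changes are compressed. The 24 h and 2 h arrays cannot be told apart from a batch if each time was processed together.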

Other observations

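The groups below were put together after their values were seen, so their counts are descriptions. MHC class II genes, which present antigen to helper T cells and are usually confined to immune cells, were higher at 24 h: of 14 measured, 12 rose and none fell, with a median of 1.23 in SCC-61 and 0.18 in HaCaT. HLA-DRA had log2 levels of 9.27, 9.07 and 9.18 at 24 h and 7.30, 7.25 and 7.22 at 2 h (1.92 ± 0.10, adjusted p = 5.13e-16), against a change of 0.23 in HaCaT. CD74, the invariant chain, had log2 levels of 7.41, 7.70 and 7.50 at 24 h and 5.20, 5.33 and 5.15 at 2 h (2.31 ± 0.15, adjusted p = 6.16e-14), and HLA-DMA and HLA-DMB, which load the peptide, rose by 1.63 and 2.11. HLA-DQB1 was detected on all 3 arrays at 24 h and on none at 2 h. Not every member differed this way between the lines. In HaCaT HLA-DMA rose by 1.81, and its difference from SCC-61 did not pass (adjusted p = 0.303 in the interaction contrast). RFX5, another member, rose by 2.07 in HaCaT and 0.37 in SCC-61, whereas HLA-DMB changed by 0.025 in HaCaT. The difference between the lines passed, in either direction, for 9 of the 14, beside 47.9% of all genes.

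All 8 subunits of the CCT chaperonin, which folds actin and tubulin, fell, with a median of -0.97, and CCT6A had log2 levels of 8.45, 8.45 and 8.56 at 24 h and 9.76, 9.86 and 9.83 at 2 h (-1.33 ± 0.086). Of 36 translation initiation factors 30 fell and 2 rose (median -0.38), EIF3J by 0.97. In polyamine synthesis 5 of 10 genes fell and 2 rose: ODC1, the first enzyme, had log2 levels of 7.73, 7.79 and 7.74 at 24 h and 9.47, 9.57 and 9.47 at 2 h (-1.75 ± 0.058), SRM fell by 1.52 and AMD1 by 1.31, while SAT1, which breaks polyamines down, rose by 1.19. Of 7 genes tied to the aryl hydrocarbon receptor 4 fell and 3 rose. CYP1B1 had log2 levels of 8.15, 7.99 and 7.98 at 24 h and 9.73, 9.60 and 9.54 at 2 h (-1.58 ± 0.062) beside the fall of CYP1A1, whereas AHR, the receptor itself, rose by 0.58 and ALDH3A1 by 0.84. All 7 measured small proline-rich genes fell (median -1.88).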
